A study of Danio rerio with 11 samples.

Results

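The comparison described here is that of csf1ra-/-;b-/- double mutant brain with control brain of adult zebrafish, across all 16536 genes of the deposited table. Its members were chosen by genotype label and make up 5 of the 11 libraries of the series, 3 double mutant and 2 control. The other libraries are 3 of csf1ra-/- brains, called single mutants here, and 3 of csf1ra-/-;b+/- brains, called csf1rb-heterozygous mutants. Control fish are labelled wild type, and every mutant group carries csf1ra-/-, so that no group has a mutated csf1rb alone. All fish share the TLF x AB background, an age of about 8 months and the mpeg1-GFP line, in which the promoter of a macrophage gene drives a fluorescent protein. Before RNA extraction every brain was kept in trypsin on ice for 2 h. The labels do not describe the alleles themselves and do not say whether a library is 1 fish or several. Nor is it stated that the replicates came from different fish, and the p-values therefore cover the spread among these libraries alone, which may be technical.

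CSF1R is the receptor tyrosine kinase through which the ligands CSF1 and IL34 maintain macrophages and microglia, the resident macrophages of the brain. Zebrafish carry csf1ra and csf1rb as a duplicated pair of this receptor, and csf1ra also acts in pigment cells of the skin. Microglia take up debris and dying cells, present antigen, carry complement and Fc receptors, and use a flexible actin cytoskeleton to survey the tissue.

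Levels are given as CPM, reads per 1e6 reads of a library, scaled per library by the authors. Differences are given on the log2(CPM + 1) scale, which understates the change of genes with few reads. Whole brains were measured, so that fewer cells of a type and less RNA per cell cannot be told apart. The libraries held 12.8 to 15.3 M reads, with 15.3 and 13.3 M in the controls and 15.2, 14.1 and 14.6 M in the double mutants. On the first principal component, which held 26.9% of the variance, the controls stood at -30.9 and -24.4 and the double mutants at 2.97, 20.3 and 6.87. The mutant libraries that bear the number 2 in their descriptions stood highest there, at 19.1 in single, 39.7 in csf1rb-heterozygous and 20.3 in double mutants. Counts below are therefore also given without these 3 libraries where they differ by over 1.5 times. The summed level of 24 retina and pineal genes did not follow that number. It was 32.9 CPM in double mutant replicate 2, 34.8 CPM in single mutant replicate 1 and 36.06 CPM in csf1rb-heterozygous replicate 3, against 152 to 438 CPM in the other libraries.

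Of the 16536 genes, 192 were called in double mutant against control brain (limma, Benjamini-Hochberg adjusted p under 0.05), which is 1.16% of those tested. Of these, 132 fell (0.798%) and 60 rose (0.363%), and 142 of the 192 differed by at least 1 on the log2 scale. The falls were led by genes of macrophages and microglia and by gh1, the growth hormone gene. Rises were led by genes known only by clone names, with a few named genes such as itga2.3, msh4 and junbb. The median over all genes was 0.01, and 48% of genes lay below 0. An unadjusted limma p under 0.05 was reached by 16.1% of all genes, edgeR's quasi-likelihood test called 1.23% and DESeq2 called 3.76%, and the counts of list members by these measures are to be read against those shares. The groups did not overlap in 36.4% of genes.

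With 1 of the 5 libraries left out in turn, 38 of the 192 genes kept their call in each of the 5 fits, and 48 kept it in none. All 192 kept their direction under all settings tried. The number of called genes fell to 82 without control replicate 1, to 123 without control replicate 2, to 74 without double mutant replicate 1 and to 111 without double mutant replicate 2. The share of rises among the calls was 31.2%, and over the 5 fits it ranged from 20.3% without double mutant replicate 3 to 48.8% without control replicate 1. Below, "kept in 4 of 5 fits" and the like refer to these fits.

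**Figure D1:**
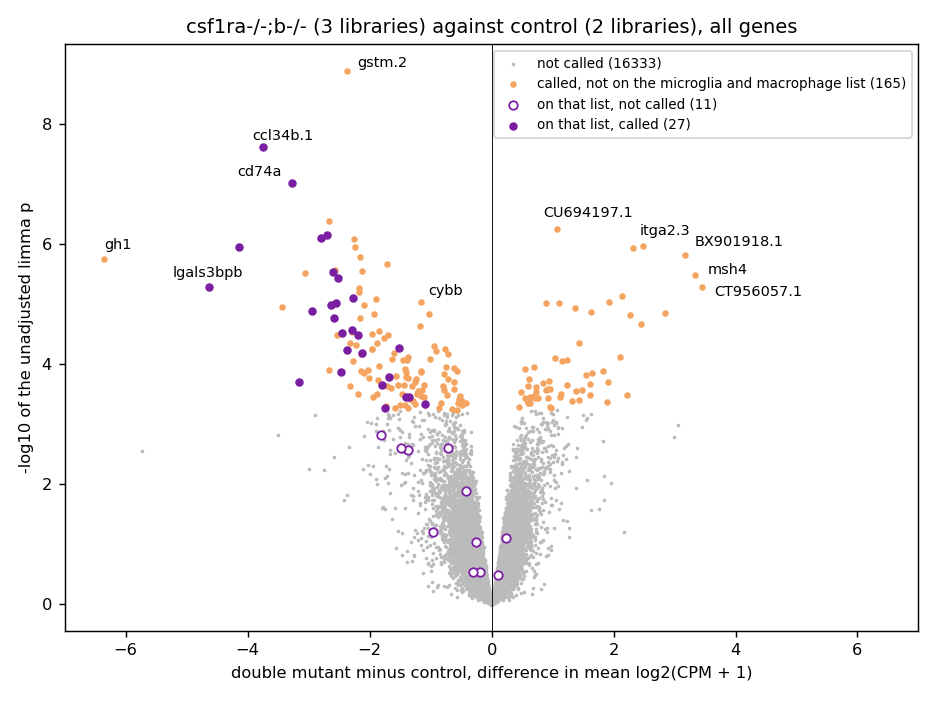
Each point is 1 gene, placed by its difference between double mutant and control brain (x axis, mean log2(CPM + 1) of 3 libraries minus that of 2) and by -log10 of its unadjusted limma p (y axis); called genes are coloured and members of the microglia and macrophage list are purple. The 27 called members of that list all lie left of 0, gh1 lies farthest left at -6.35, and gstm.2 has the smallest p.

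The receptors themselves were lower in double mutants. csf1ra stood at 9.66 and 7.33 CPM in the controls and at 0.127, 0 and 0.602 CPM in the double mutants. The groups did not overlap, and csf1ra fell by 2.95 ± 0.41 (SE) on the log2 scale, adjusted p = 0.00555. Listed genes had at least 1.97 CPM in 3 libraries, and csf1ra reached that only in both controls and single mutant replicate 3. It would not be listed without its control levels, so its call and fits are no separate support for a fall. Without control replicate 1 the adjusted p of csf1ra was 0.0609. The second receptor, csf1rb, stood at 21.6 and 13.6 CPM in controls and at 1.97, 2.52 and 2.08 CPM in double mutants. It fell by 2.51 ± 0.30 (SE), adjusted p = 0.00277, and kept its call in 5 of 5 fits. Every double mutant library thus still held reads of csf1rb. The single mutants, in which only csf1ra is labelled mutant, stood at 14.4, 8.42 and 10.7 CPM of csf1rb, and the double mutants were 1.91 lower than these, adjusted p = 0.00661. The csf1rb-heterozygous mutants stood at 3.83, 1.60 and 3.63 CPM, a difference of -0.29 for double mutants against them with an adjusted p of 1.

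The ligand genes did not pass the test. csf1a stood at 4.40 and 4.09 CPM in controls and between 2.95 and 3.88 CPM in double mutants, a difference of -0.27, adjusted p = 0.637. il34, which encodes the second CSF1R ligand, stood at 3.55 and 2.78 CPM in controls and at 3.24, 2.80 and 4.02 CPM in double mutants, with overlapping groups and an adjusted p of 0.927. csf1b is not analysed here.

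On the list of microglia and macrophage genes, 38 of 48 symbols were measured. Of these, 27 fell and 0 rose, 36 differed in the direction of a fall, and 32 had every double mutant library below both controls, against 16.6% of all genes. The median difference of the list was -2.16, with a range from -4.64 to 0.24. Controls themselves differed, with a summed level of 1770 CPM in replicate 1 and 1243 CPM in replicate 2, against 611, 583 and 739 CPM in the double mutants. The count of falls was 11 without control replicate 1 and 16 without double mutant replicate 1.

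The transcription factors that specify macrophages were among the falls. spi1a, a zebrafish copy of PU.1, stood at 10.9 and 6.87 CPM in controls and at 0.190, 0.288 and 0.736 CPM in double mutants. It fell by 2.80 ± 0.29 (SE), adjusted p = 0.00161, and kept its call in 5 of 5 fits. Its paralogue spi1b fell by 2.45 (adjusted p = 0.0098), from 12.8 and 4.40 CPM to 0.508, 0.503 and 0.736 CPM. irf8, a factor required for microglia in zebrafish, fell by 2.19, from 14.9 and 7.41 CPM to 1.71, 1.08 and 1.87 CPM (adjusted p = 0.0098). The calls of spi1b and irf8 were lost without control replicate 1 (adjusted p = 0.0708 and 0.0985). These 3 were the only falls among 12 measured myeloid transcription factors, whose median was -0.25, and no member rose. cebpa and cebpb, factors of granulocytes and macrophages that other cells also express, had overlapping groups, with differences of -0.19 and -0.31.

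Genes of surface receptors and secreted products of macrophages also fell. The chemokine gene ccl34b.1 stood at 26.4 and 22.1 CPM in controls and at 0.825, 0.431 and 1.54 CPM in double mutants, a fall of 3.74 ± 0.28 (SE) with an adjusted p of 0.000202. The galectin ligand gene lgals3bpb fell by 4.64 (adjusted p = 0.00363), from 142 and 33.3 CPM to 1.84, 0.575 and 4.02 CPM. The galectin gene lgals9l1 fell by 4.14 (adjusted p = 0.00161), from 68.7 and 21.7 CPM to 0.635, 0.863 and 2.74 CPM. In these 2 genes the controls were themselves 3 or more times apart, yet the lower control stood above every double mutant, and both calls were kept in 5 of 5 fits. The integrin gene itgae.1 stood at 7.49 and 4.94 CPM in controls and at 0.0635 to 0.144 CPM in double mutants. It reached 1.97 CPM only in both controls and single mutant replicate 1, so it would not be listed without its control levels. mpeg1.1, which encodes a macrophage pore-forming protein and is named here because its promoter gives the line its name, fell from 18.5 and 14.9 CPM to 1.65, 1.01 and 5.02 CPM (adjusted p = 0.0236, kept in 1 of 5 fits).

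Antigen presentation genes fell in 4 of 18 measured cases and rose in 0, with a median of -0.76. cd74a, the invariant chain of class II molecules, stood at 329 and 190 CPM in controls and at 24.4, 20.6 and 30.7 CPM in double mutants. Its fall of 3.28 ± 0.28 (SE) had an adjusted p of 0.000538. cd74b fell by 2.54 (adjusted p = 0.00465), from 121 and 56.5 CPM to 12.9, 9.63 and 19.1 CPM. The class II gene mhc2dab fell by 3.06 (adjusted p = 0.00251), from 31.1 and 11.5 CPM to 1.84, 1.73 and 0.803 CPM, and ctss2.2, a cathepsin that trims the invariant chain, fell by 2.13 (adjusted p = 0.0153, without control replicate 1 0.119). The class I gene mhc1uba had the widest difference of that list, -5.73, and was not called (adjusted p = 0.0975). It stood at 56.8 and 61.6 CPM in controls and at most at 0.268 CPM in double mutants, while 1 of the single mutant libraries was at 0 and the others at 106 and 114 CPM.

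Receptors and machinery of uptake fell in part. mrc1b, a mannose receptor, fell by 3.44 (adjusted p = 0.00502), from 25.9 and 11 CPM to 0.825, 0.216 and 1.07 CPM. The scavenger receptor marco fell by 3.16 (adjusted p = 0.029, kept in 2 of 5 fits), from 32.9 and 5.63 CPM to 0.444, 0.144 and 1.87 CPM. havcr1 and timd4, receptors for phosphatidylserine on dying cells, fell by 2.64 and 1.97 (adjusted p = 0.00484 and 0.0143). Without control replicate 1 the adjusted p was 0.0598 for mrc1b, 0.159 for marco, 0.0534 for havcr1 and 0.0965 for timd4. These were the 4 falls among 26 measured scavenger and uptake receptors, of which abca1a, a cholesterol and phospholipid exporter, was the 1 rise. abca1a stood at 135 and 112 CPM in controls and at 187, 168 and 188 CPM in double mutants (0.55, adjusted p = 0.0381, kept in 0 of 5 fits). The median of that list was 0.01.

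Of 15 measured complement genes, the C1q chains c1qa and c1qb fell by 2.37 and 2.3 (adjusted p = 0.0145 and 0.00914) and 0 rose. c1qb stood at 9.73 and 3.01 CPM in controls and between 0.288 and 0.402 CPM in double mutants. In single mutants c1qa and c1qb had means of 1.93 and 1.92 CPM, and the other mutants had lower means. Neither gene reached 1.97 CPM in 3 libraries without the controls, so their calls are no separate support for a fall. The call of c1qa was lost without control replicate 1 (adjusted p = 0.0936) and without double mutant replicate 1 (0.0547). The median of the complement list was -0.03.

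Signalling and cytoskeletal genes shared by leukocytes fell as well. Of 18 measured leukocyte signalling genes, 8 fell and 0 rose, all 18 differed in the direction of a fall, and the median was -1.41. fcer1gl, the Fc receptor gamma chain, fell by 2.61 (adjusted p = 0.00251), from 16.8 and 8.79 CPM to 1.14, 0.647 and 1.87 CPM. inpp5d, a lipid phosphatase, fell by 1.90 (adjusted p = 0.00465), and ptpn6, a tyrosine phosphatase, by 2.22 (adjusted p = 0.0133). Without control replicate 1 their adjusted p-values were 0.0534 and 0.119. Of 16 leukocyte actin genes, 5 fell and 0 rose, with a median of -1.52. The actin regulator coro1a fell by 2.28 (adjusted p = 0.00465), from 31.0 and 16 CPM to 3.56, 3.31 and 4.69 CPM. Profilin, pfn1, fell by 1.96 (adjusted p = 0.0098, without control replicate 1 0.0577), from 90.8 and 39.9 CPM to 11.7, 15.5 and 17.7 CPM.

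Of the NADPH oxidase, the enzyme with which phagocytes make superoxide, 2 of 7 measured subunits fell and 0 rose. cybb, its catalytic subunit, stood at 25.4 and 26.2 CPM in controls and at 9.02, 11.4 and 13 CPM in double mutants. The controls lay close together, and the fall of 1.16 ± 0.15 (SE) had an adjusted p of 0.00465 and was kept in 5 of 5 fits. Its partner cyba fell by 1.24 (adjusted p = 0.0274, kept in 1 of 5 fits), from 12 and 6.71 CPM to 3.43, 3.23 and 3.01 CPM. ncf1 and ncf4, which encode cytosolic subunits, were not called, with differences of -0.91 and -0.90.

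Of 17 chemokine and chemokine receptor genes 3 fell, ccl34b.1, cxcr3.2 and cmklr1, and 0 rose. The receptor gene cxcr3.2 stood at 4.40 and 3.39 CPM in controls and at 0.317, 0 and 0.0669 CPM in double mutants (-2.12, adjusted p = 0.00251). Outside the controls only single mutant replicates 1 and 3 reached 1.97 CPM of cxcr3.2, so its call is no separate support for a fall. cmklr1 fell by 2.15 (adjusted p = 0.00627, without control replicate 2 0.0504). Of 15 inflammatory cytokine genes 0 were called (limma, with 2 at an unadjusted p under 0.05, 0 with edgeR and 1 with DESeq2), and their median was 0.06. Of 22 interferon response genes limma called stat1a alone, with a fall of 0.79 (adjusted p = 0.0309, kept in 1 of 5 fits). Yet all 22 differed in the direction of a fall, and their median was -0.81. The controls themselves differed, with medians of 0.46 and -0.46 around the control mean and summed levels of 610 and 393 CPM. The double mutants summed to 246, 267 and 311 CPM. The csf1rb-heterozygous mutants also had a median of -0.81 against control on this list. In 13 of the 22 every double mutant library lay below both controls, against 16.6% of all genes. An unadjusted limma p under 0.05 was reached by 13 (16.1% of all genes). edgeR called 2 (1.23% of all genes) and DESeq2 called 8 (3.76% of all genes). stat1b, for example, stood at 31.7 and 12.5 CPM in controls and at 1.33, 1.73 and 3.82 CPM in double mutants, with an adjusted p of 0.138.

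**Figure D2:**
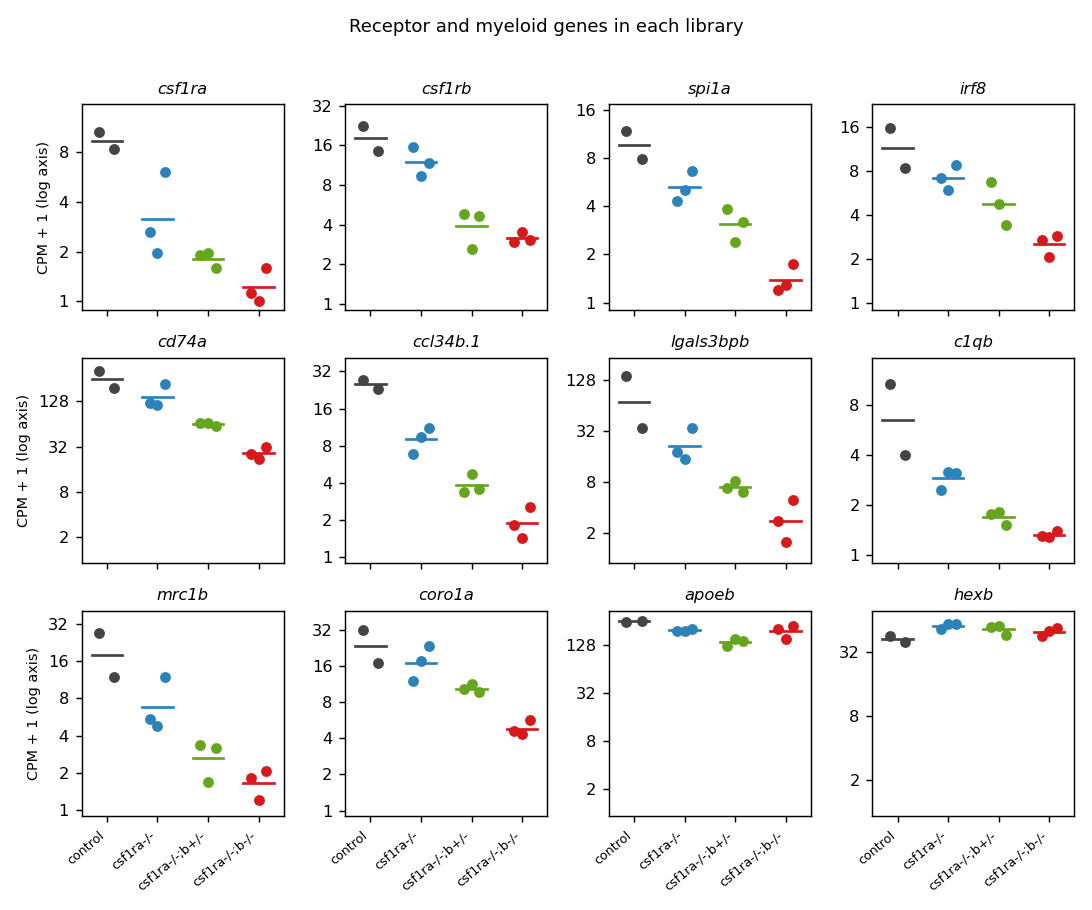
Points are libraries and bars are group means of log2(CPM + 1), drawn as CPM + 1 on a log axis, for the 2 receptors, 8 myeloid genes that were called and 2 members of the microglia list that were not called (apoeb and hexb). Double mutant libraries lie below both controls in the first 10 panels, by 3.74 on the log2 scale for ccl34b.1 and 3.28 for cd74a, while hexb overlaps between the groups. csf1ra and c1qb would not have passed the filter of the deposited table without control libraries.

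Not every gene of the microglia and macrophage list fell. hexb, a lysosomal enzyme, stood at 44.6 and 38.9 CPM in controls and at 44.4, 50.5 and 53.1 CPM in double mutants, a difference of 0.24 with an adjusted p of 0.373. slc37a2, a sugar phosphate transporter, differed by 0.11 (adjusted p = 0.655). apoeb, an apolipoprotein E gene that marks microglia in larval zebrafish, stood at 252 and 259 CPM in controls and at 203, 154 and 224 CPM in double mutants, which did not overlap, with a difference of -0.42 and an adjusted p of 0.188. ctsc, a cathepsin, stood at 29.7 and 18.4 CPM in controls and at 12.3, 15 and 14.3 CPM in double mutants, a difference of -0.72 (adjusted p = 0.0939). Among 42 lysosome genes, grna, a granulin gene, was the 1 fall, by 2.59 from 22.9 and 12.6 CPM to 2.67, 0.934 and 2.81 CPM (adjusted p = 0.00627, without control replicate 1 0.0786). The median of the lysosome list was -0.01. The microglia and macrophage list thus held genes with nearly no reads left, such as itgae.1 and spi1a, beside genes that were not called, such as hexb, whose groups overlapped.

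Markers of other blood cells were not called. Of 10 measured neutrophil and mast cell genes and of 7 lymphocyte and NK cell genes 0 were called, with medians of -0.05 and -0.08. At an unadjusted limma p under 0.05 these lists held 5 and 2 genes, edgeR called 0 in either, and DESeq2 called 1 and 0. mpx, the neutrophil myeloperoxidase, stood at 1.97 and 2.01 CPM in controls and at 1.40, 4.38 and 3.48 CPM in double mutants. Of the 10 neutrophil and mast cell genes, 6 differed in the direction of a fall. Their summed level was 99.7 and 81.1 CPM in controls and 56.7, 64.7 and 74.2 CPM in double mutants, which did not overlap. The lymphocyte list is thin, since 7 of its 35 symbols were in the table. Of 20 red cell genes limma called 0 (5 at an unadjusted p under 0.05, 0 with edgeR, 2 with DESeq2), and their summed level was 367 and 470 CPM in controls against 491, 581 and 656 CPM in double mutants. The part of blood content in the rises and falls was not tested. Of 23 genes of epidermis, muscle and skull 0 were called by limma, edgeR or DESeq2 or passed an unadjusted p of 0.05, and their summed level was 404 and 446 CPM in controls and 307, 270 and 376 CPM in double mutants, which did not overlap. The part of these tissues in the results was not tested.

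Among the lists of brain cell types few members were called. Of 21 oligodendrocyte and myelin genes mbpa was the 1 fall and 0 rose. mbpa, a myelin basic protein gene, stood at 7624 and 6456 CPM in controls and at 3625, 4490 and 4495 CPM in double mutants, a fall of 0.75 ± 0.13 (SE) with an adjusted p of 0.0222. The groups did not overlap, yet leaving out control replicate 1 (adjusted p = 0.143) or double mutant replicate 1 (0.0677) ended the call. The myelin genes mpz, plp1b and mag had overlapping groups, with differences of 0.07, -0.15 and 0.17, and the median of the list was -0.14. Among 15 genes of oligodendrocyte precursors ptprz1b, a receptor phosphatase, rose by 0.44 (adjusted p = 0.0466, kept in 0 of 5 fits).

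Of 30 radial glia and astroglia genes 0 were called by limma, edgeR or DESeq2, 10 had an unadjusted limma p under 0.05, and the median was -0.20. Of 35 pan-neuronal and synaptic genes 2 fell, vamp2, a synaptic vesicle protein, by 0.61 (adjusted p = 0.0224) and map2, a dendritic microtubule protein, by 0.49 (adjusted p = 0.0402). vamp2 stood at 186 and 199 CPM in controls and at 130, 129 and 118 CPM in double mutants, and its call was kept in 0 of 5 fits. Of 32 inhibitory neuron genes gabrd, a GABA receptor subunit, fell by 0.42 (adjusted p = 0.0429, kept in 0 of 5 fits), and of 32 excitatory neuron genes 0 were called by limma, edgeR or DESeq2, with 5 at an unadjusted limma p under 0.05. Of 33 endothelial genes cldn5b, a tight junction claudin, and tfr1b, a transferrin receptor, fell by 1.15 and 0.61 (adjusted p = 0.0236 and 0.033), both kept in 0 of 5 fits. Of 16 pigment cell genes csf1ra and pax7a fell, the latter by 0.54 (adjusted p = 0.0425, kept in 0 of 5 fits). The median of the pigment cell list was -0.32, and 15 of the 16 differed in the direction of a fall. In 7 of them every double mutant library lay below both controls, against 16.6% of all genes.

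**Figure D3:**
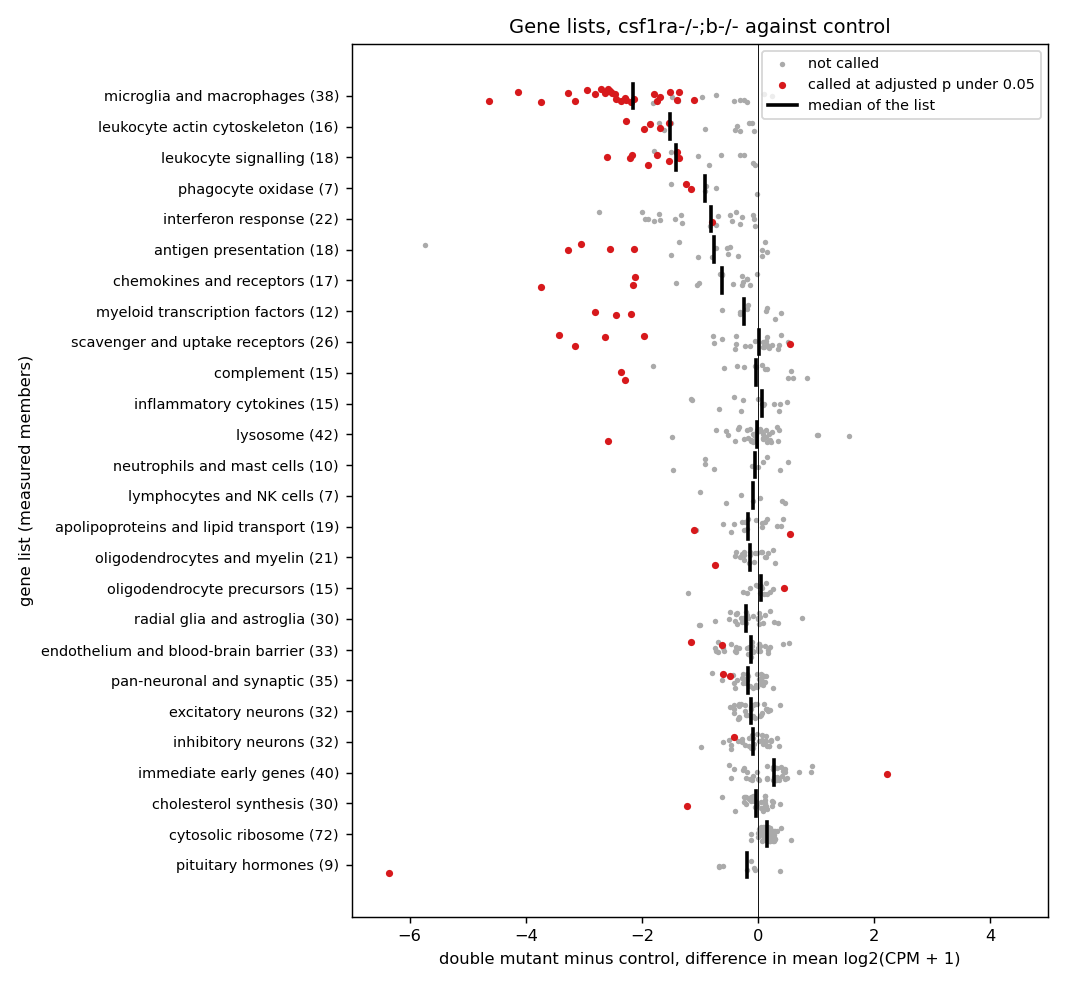
Each point is 1 measured gene of a list, placed by its difference between double mutant and control brain in mean log2(CPM + 1) (x axis); called genes are red and black bars are medians of the lists, whose measured members are counted in parentheses. The medians of the microglia (-2.16), leukocyte actin (-1.52) and leukocyte signalling (-1.41) lists lie left of 0, while lists of neurons, oligodendrocytes and radial glia have medians between -0.20 and 0.05.

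The widest fall of all was that of gh1, which encodes pituitary growth hormone. It stood at 103 and 85.2 CPM in controls and at 0, 0.575 and 0 CPM in double mutants. The fall of 6.35 ± 0.72 (SE) had an adjusted p of 0.00201 and was kept in 5 of 5 fits. The single mutants stood at 115, 74.4 and 130 CPM and the csf1rb-heterozygous mutants at 7.17, 0 and 0 CPM. Of 9 measured pituitary genes 0 others were called. pomca, which encodes the precursor of ACTH, stood at 3.81 and 4.09 CPM in controls and at 4.13, 4.82 and 7.76 CPM in double mutants, and prl2, a prolactin gene, at 1.64 and 6.33 CPM against 1.08, 2.23 and 2.08 CPM. How much pituitary each library held was not tested beyond these levels.

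The smallest adjusted p of the comparison was that of gstm.2, a glutathione S-transferase gene. It stood at 16.5 and 19.8 CPM in controls and at 2.41, 2.52 and 3.15 CPM in double mutants, a fall of 2.38 ± 0.14 (SE), adjusted p = 2.16e-05. The single mutants stood above the controls, at 46.6, 45.3 and 48.0 CPM, and the csf1rb-heterozygous mutants between 20.4 and 21.2 CPM. Of 35 glutathione and redox genes gstm.2 was the 1 called. si:ch211-8c17.4, which has no gene name beyond its clone, stood at 6.77 and 4.17 CPM in controls and at 0 in all 3 double mutants, which was at least 82.8-fold lower when the pooled control level was set against a floor of 3 reads over the group. The lower limit of the exact 95% interval of that ratio, which counts the error of the control reads too, was 66.6, and such limits are given beside the other folds of this kind. IL4I1, named in the table after a secreted amino acid oxidase, stood at 10.6 and 2.78 CPM in controls and at 0.127, 0 and 0 CPM in double mutants (-2.67, adjusted p = 0.0235, kept in 1 of 5 fits). ern1, a sensor of unfolded protein in the endoplasmic reticulum, fell by 2.03 (adjusted p = 0.0235, kept in 1 of 5 fits), from 135 and 58.9 CPM to 23.6, 19.2 and 20.6 CPM. pmvk, a kinase of the mevalonate pathway, was the 1 fall among 30 cholesterol synthesis genes, by 1.22 (adjusted p = 0.0367, kept in 2 of 5 fits). apoc1, an apolipoprotein gene on the microglia list, fell by 1.1 (adjusted p = 0.0438, kept in 1 of 5 fits), from 146 and 180 CPM to 66, 57.1 and 112 CPM.

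Rises were fewer, and 43.3% of the 60 genes that rose bore clone names, against 23.5% of the 132 that fell and 14.8% of all genes. CT956057.1 had the widest rise. It stood at 0.0657 and 0 CPM in controls and at 8.06, 23.4 and 5.49 CPM in double mutants, a rise of 3.45 ± 0.43 (SE), adjusted p = 0.00363. No single mutant or csf1rb-heterozygous library exceeded 0.259 CPM of it. itga2.3, named as an integrin alpha subunit, had the same pattern, at 0.592 and 0.0771 CPM in controls and at 8.83, 4.89 and 5.76 CPM in double mutants (2.48, adjusted p = 0.00161). The other mutant libraries held at most 0.437 CPM of itga2.3. Both calls were kept in 5 of 5 fits. Listed genes had at least 1.97 CPM in 3 libraries, and these 2 genes reached that in the double mutants alone. They would not be listed without their high double mutant levels, so the calls and fits are no separate support for a rise.

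msh4, a meiotic recombination gene, was high in double mutants and csf1rb-heterozygous mutants and near 0 elsewhere. It stood at 0.197 and 0 CPM in controls, at 0 in all 3 single mutants, at 10.8, 10.8 and 5.51 CPM in the csf1rb-heterozygous mutants and at 18.7, 5.54 and 9.37 CPM in double mutants (3.33, adjusted p = 0.00263). BX649490.2 stood at 0 in controls and single mutants and at 1.78, 3.88 and 4.89 CPM in double mutants, which was at least 32.6-fold higher against a floor of 3 reads over the control group (lower limit 26.2, adjusted p = 0.0172, kept in 2 of 5 fits). CU856518.1 rose by 2.45 (adjusted p = 0.00773, without control replicate 2 0.0623), from 2.83 and 2.16 CPM to 9.91, 21.3 and 27 CPM. si:dkey-169i5.4 rose by 1.91, from 0.329 and 0.386 CPM to 2.35, 5.25 and 5.29 CPM (adjusted p = 0.029, kept in 1 of 5 fits). In these 3 genes the csf1rb-heterozygous libraries also stood above both controls. msh4, BX649490.2 and si:dkey-169i5.4 were under 1.97 CPM in both controls and were therefore listed through mutant libraries alone. For msh4 and BX649490.2 these were csf1rb-heterozygous and double mutant libraries. The calls, folds and fits of these genes are thus no separate support for a rise.

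Other wide rises stood above both controls in every library of every mutant genotype. BX901918.1 was at 0.854 and 2.01 CPM in controls and at 21.3, 15.7 and 24.9 CPM in double mutants (3.17, adjusted p = 0.00192), while all other mutant libraries lay between 21.8 and 54.1 CPM. CABZ01112732.1 was at 0.657 and 0.617 CPM in controls and at 6.98, 9.42 and 5.56 CPM in double mutants (2.32, adjusted p = 0.00161), with 4.08 to 7.81 CPM in the other mutants. CU694197.1 had controls at 13.3 and 12.4 CPM and double mutants at 29.4, 28.3 and 26.9 CPM (1.08, adjusted p = 0.00161), and si:dkey-159n16.2, CT025651.1 and si:ch211-209j12.1 rose by 2.85, 2.14 and 1.93 in the same manner. These 6 calls were kept in 5 of 5 fits. otol1b, named after an inner ear matrix protein, rose by 2.27 (adjusted p = 0.00566), from 0.131 and 0 CPM to 2.67, 5.03 and 5.09 CPM, with 1.53 to 3.33 CPM in single mutants and 2.72 to 4.80 CPM in csf1rb-heterozygous mutants. CABZ01076666.1 stood at 0 in both controls and at 2.22, 4.38 and 1.61 CPM in double mutants, at least 25.3-fold higher against the same floor (lower limit 20.2, adjusted p = 0.0235, kept in 1 of 5 fits), with 3.13 to 3.89 CPM in single mutants and 0.627 to 1.82 CPM in csf1rb-heterozygous mutants. GUCY2C (1 of many), a guanylate cyclase gene, rose by 1.89 (adjusted p = 0.0421, kept in 1 of 5 fits). Those of these genes with both controls under 1.97 CPM, such as CABZ01112732.1 and otol1b, were listed through mutant libraries alone. Their calls, folds and fits are no separate support for a rise.

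Few of the lists held a rise. zgc:92066, a ferritin heavy chain gene of the iron list, stood at 52.0 and 46.0 CPM in controls and at 95, 114 and 111 CPM in double mutants. It rose by 1.1 ± 0.15 (SE), adjusted p = 0.00465, kept in 5 of 5 fits, and with the fall of tfr1b it was the only call among 19 iron genes. junbb, an AP-1 factor and immediate early gene, stood at 45.5 and 79.4 CPM in controls and at 309, 325 and 231 CPM in double mutants (2.23, adjusted p = 0.0369, kept in 0 of 5 fits, 0.0536 with edgeR's quasi-likelihood test). It was the 1 call among 40 immediate early genes. ubb, a polyubiquitin gene, stood at 32.5 and 40.4 CPM in controls and at 63.2, 56.7 and 62.1 CPM in double mutants (0.73, adjusted p = 0.0313, kept in 1 of 5 fits). The 41 genes of protein quality and proteasome held no other limma call. In 25 of them every double mutant library lay above both controls, against 19.9% of all genes, and their median was 0.12. cep152, a centriole gene, rose by 1.48 (adjusted p = 0.0336, kept in 1 of 5 fits), from 1.25 and 1.00 CPM to 6.48, 3.81 and 4.75 CPM. It too was under 1.97 CPM in both controls and was listed through mutant libraries alone. Of 72 cytosolic ribosome genes limma called 0 (3 at an unadjusted p under 0.05, 0 with edgeR, 1 with DESeq2), although 51 had every double mutant library above both controls, against 19.9% of all genes, and their median was 0.16. Single mutants had a median of 0.19 against control. Medians were highest in the single, csf1rb-heterozygous and double mutant libraries numbered 2, at 0.38, 0.33 and 0.23. For protein quality and proteasome these libraries were also highest, at 0.23, 0.21 and 0.13. No control bears that number.

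**Figure D4:**
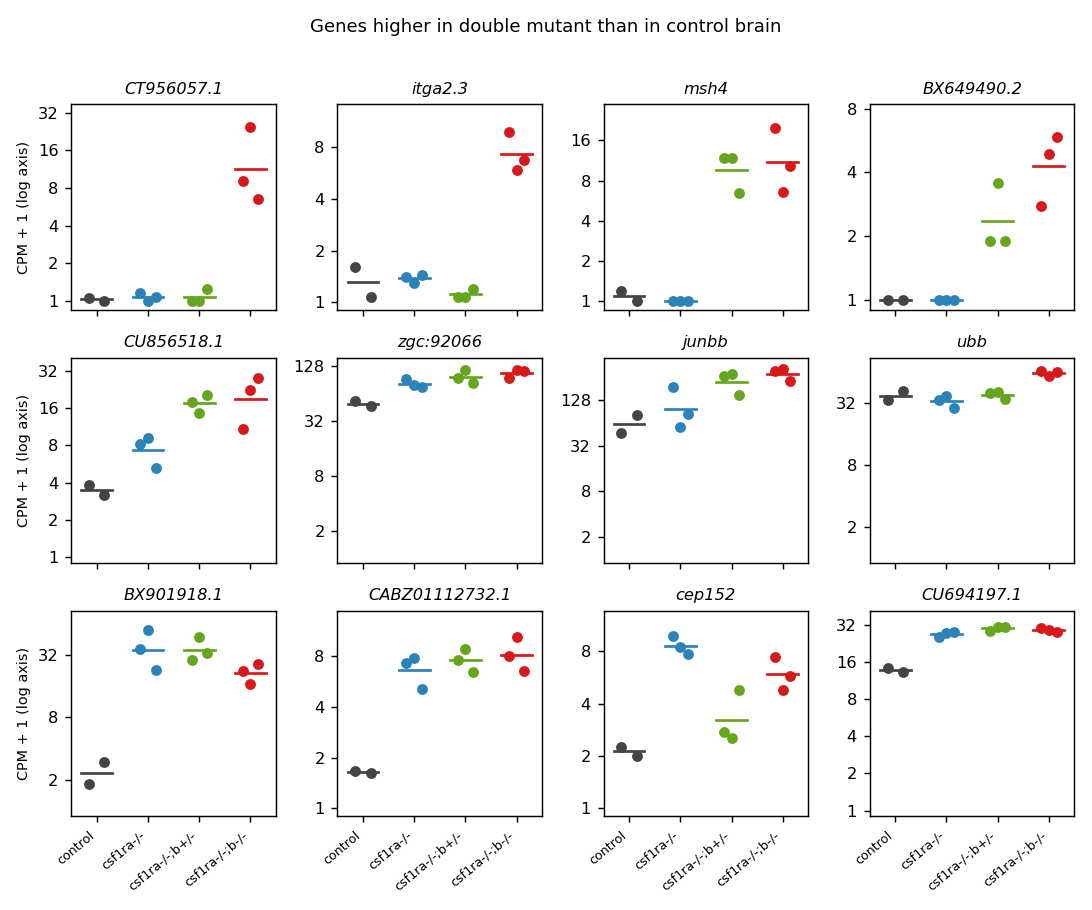
Points are libraries and bars are group means of log2(CPM + 1), drawn as CPM + 1 on a log axis, for 12 genes that rose in double mutant against control brain. CT956057.1 and itga2.3 are high in double mutants alone, msh4 in double and csf1rb-heterozygous mutants, and BX901918.1, CABZ01112732.1 and CU694197.1 in all 3 mutant genotypes. CT956057.1 and itga2.3 passed the filter of the deposited table through the double mutant libraries alone. Other genes under 1.97 CPM in both controls passed it through mutant libraries alone.

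The other genotypes place these levels. The same double mutant libraries take part in the comparisons with each, so the counts that follow are not independent of those above. The controls enter only the estimate of the spread, which all 4 groups share. Against single mutants 156 genes were called (0.943%), with 102 falls (0.617%) and 54 rises (0.327%). Against csf1rb-heterozygous mutants 14 were called (0.0847%), with 8 falls (0.0484%) and 6 rises (0.0363%), while 864 genes (5.22%) had an unadjusted p under 0.05, edgeR called 16 (0.0968%) and DESeq2 called 98 (0.593%). Without the mutant libraries that bear the number 2, the counts were 79 and 5. The count against single mutants was 98 and 66 without single mutant replicates 1 and 3, and 78 and 79 without double mutant replicates 1 and 2. The count against csf1rb-heterozygous mutants was 8 and 9 without their replicates 1 and 2, and 36 without double mutant replicate 3.

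On the microglia and macrophage list, 13 of 38 members were lower in double than in single mutants and 0 higher, with a median of -1.27. cd74a was 2.48 lower (adjusted p = 0.00103), ccl34b.1 2.26 lower (adjusted p = 0.00211) and spi1a 1.92 lower (adjusted p = 0.0058). Against csf1rb-heterozygous mutants limma and edgeR called 0 of the 38 and DESeq2 called 7, with 13 at an unadjusted limma p under 0.05 and a median of -0.39. The largest of these differences among the genes named were those of lcp1, an actin bundling protein, at -1.38 (adjusted p = 0.145), and of lgals3bpb at -1.32 (adjusted p = 0.83). The summed levels of the list were 946 to 1155 CPM in single mutants, 653 to 733 CPM in csf1rb-heterozygous mutants and 583 to 739 CPM in double mutants, so that the last 2 overlapped. mhc2dab went against that order, with 0.0696, 0.139 and 0 CPM in the csf1rb-heterozygous mutants below the 0.803 to 1.84 CPM of the double mutants (difference 1.17, adjusted p = 0.465).

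A few genes separated double mutants from both other mutants. gstm.2 was 3.69 lower than in single mutants (adjusted p = 4.41e-08) and 2.57 lower than in csf1rb-heterozygous mutants (adjusted p = 2.66e-06). cybb stood between 21.2 and 28.7 CPM in all 6 other mutant libraries and was 1.01 and 1.23 lower in double mutants (adjusted p = 0.0058 and 0.0044). The controls, at 25.4 and 26.2 CPM, lay within that range, so that cybb was low in double mutants alone. si:ch73-233k15.2, which the current annotation names apol, stood at 12.6 and 7.56 CPM in controls and at 1.40, 1.22 and 1.14 CPM in double mutants, and was lower than in single (adjusted p = 0.00211) and csf1rb-heterozygous mutants (adjusted p = 0.0336). si:ch211-214b16.2 was at 0 in all 3 double mutants and at 2.49 to 6.48 CPM in all other libraries. It was at least 61.7-fold lower than in controls, against the same floor (lower limit 49.4, adjusted p = 0.00949, without control replicate 1 0.097). si:dkey-199f5.6 stood at 4.34 and 7.33 CPM in controls and at 1.02, 1.37 and 0.335 CPM in double mutants (adjusted p = 0.00922, without control replicate 2 0.0794), and at 7.74 to 14.0 CPM in the other mutants. si:dkey-23a13.11 was lower than in both mutants (adjusted p = 0.0133 and 0.00596) and was not called against control (adjusted p = 0.0559).

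Some genes stood in double mutants at the control level and away from it in other mutants. dpyda.3, named after a pyrimidine-degrading enzyme, stood at 12.6 and 19 CPM in controls, at 19.4, 15.7 and 14.1 CPM in double mutants and between 3.06 and 5.12 CPM in the other mutants. It was 1.82 higher in double than in single mutants (adjusted p = 0.00236) and 1.83 higher than in csf1rb-heterozygous mutants (adjusted p = 0.0044). si:ch73-59c19.1 and si:rp71-77l1.1 had the same order, with differences of 2.01 and 1.74 against csf1rb-heterozygous mutants (adjusted p = 0.0159 and 0.0044). alox5b.3, a lipoxygenase gene, stood at 6.65, 17.3 and 21.6 CPM in single mutants alone and at most at 0.134 CPM in double mutants (difference -3.79, adjusted p = 0.000418). It reached the listing level of 1.97 CPM in 3 libraries through the single mutants alone. Its call is thus no separate support for a difference from them. si:ch211-181d7.3, AL928808.1 and si:ch211-272b8.6 were higher in double than in single mutants by 3.37, 2.77 and 2.77, with groups that overlapped between double mutants and controls. loxl2b, a collagen cross-linking enzyme, stood at 90.5, 105 and 136 CPM in single mutants and at 7.05, 2.23 and 27.3 CPM in double mutants (difference -3.61, adjusted p = 0.02). Its fall against control was not called (adjusted p = 0.108), which does not place loxl2b at the control level. CU019657.1 was 3.73 lower than in single mutants (adjusted p = 0.0205) and overlapped with the controls.

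Cholesterol synthesis genes also separated double from single mutants. Of 30 measured, 6 were lower in double mutants and 0 higher, and the median difference was -0.42. cyp51, a sterol demethylase, stood at 66.5, 55.7 and 68.0 CPM in single mutants and at 36.8, 31.7 and 34 CPM in double mutants, 0.87 lower (adjusted p = 0.00648), with controls at 39.5 and 37.0 CPM. hmgcs1, which makes the precursor of mevalonate, was 1.03 lower than in single mutants (adjusted p = 0.0159) and differed from control by 0.11. msmo1, lss, insig1 and fdps were the other 4. The immediate early genes egr3 and npas4b were likewise lower than in single mutants, by 0.80 and 0.81 (adjusted p = 0.0205 each), and differed from control by -0.01 and -0.14.

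**Figure D5:**
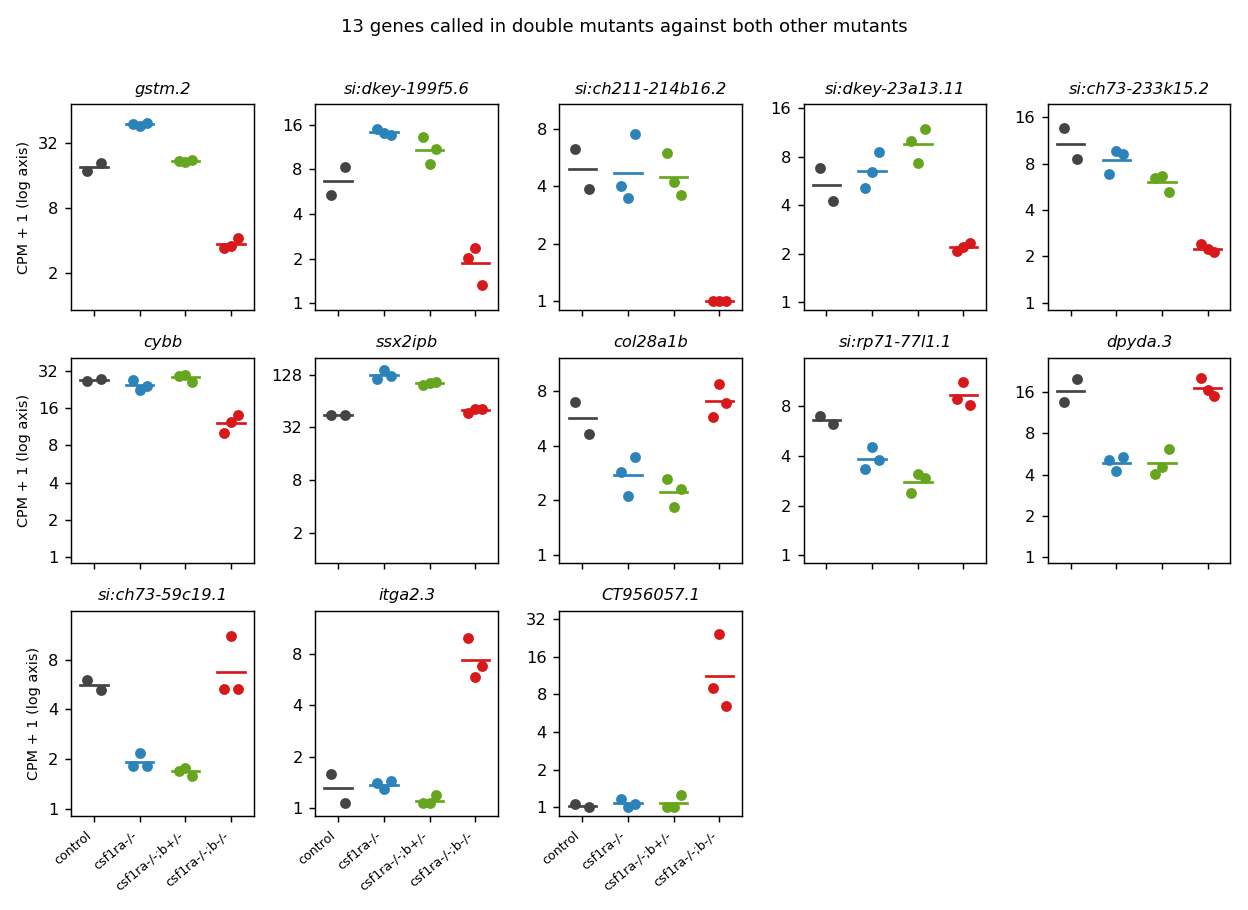
Points are libraries and bars are group means of log2(CPM + 1), drawn as CPM + 1 on a log axis, for the 13 genes called in double mutants against both the single and the csf1rb-heterozygous mutants, ordered by the difference from the latter. The first 7 are lower in double than in the other mutants, with si:ch211-214b16.2 at 0 CPM in all 3 libraries, and in dpyda.3 and si:ch73-59c19.1 the double mutants stand with the controls above the other mutants.

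Genes near a mutated locus can travel with it in a cross, so the called genes were also counted by chromosome. On the chromosome of csf1ra 8 of 528 tested genes were called (1.52%), on that of csf1rb 14 of 555 (2.52%) and on all other chromosomes 124 of 13154 (0.943%). For 46 of 2299 genes with no chromosome found the share was 2.00%. The highest share on any chromosome was 20 of 725 (2.76%), on one that holds neither receptor. On the csf1rb chromosome 10 of the called genes fell, namely csf1rb itself, c1qa, c1qb, havcr1, timd4, lcp2a, slco2b1, cd74b, ddt and snx12. The 4 rises there were nup54, plgrkt, gsna and grpel2. Distances were counted over the tested genes alone, ordered by their RefSeq start in GRCz12tu, so genes not tested were passed over. By that count the others lie from 47 (slco2b1) to 518 tested genes (nup54) away from csf1rb. On the csf1ra chromosome 7 called genes fell, among them csf1ra itself and cd74a, which lies 3 tested genes from it. The others were zgc:158257, si:dkey-27i16.2, gdpd2, slc7a11 and ccdc88b, which lie 37, 95, 305, 387 and 415 tested genes from csf1ra. The 1 rise there was ints10, 35 tested genes from csf1ra. For c1qa, c1qb, havcr1, timd4, lcp2a, slco2b1, cd74b and cd74a, linkage and the loss of myeloid RNA in general cannot be told apart by position. In single mutants, where csf1rb is not labelled mutant, the csf1rb-chromosome genes among these had lower means than in controls. For example, havcr1 had means of 8.64 CPM in controls and 2.54 CPM in single mutants, and cd74b of 88.8 and 60.2 CPM. Of the 4 rises on the csf1rb chromosome, nup54 had means of 5.41 and 9.48 CPM in these groups and plgrkt of 3.12 and 7.87 CPM. gsna had means of 15.5 and 18.0 CPM and grpel2 of 33.1 and 32.7 CPM. Of the falls there, ddt had means of 68.8 and 56.3 CPM and snx12 of 211 and 157 CPM in the same groups. Mean levels of cd74a were 260 CPM in controls and 150, 63.5 and 25.2 CPM in single, csf1rb-heterozygous and double mutants. Those of zgc:158257, the next nearest fall to csf1ra, were 25.9 CPM and 16.8, 13.8 and 13.1 CPM. Neither linkage nor that loss was tested.

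The remaining called genes lay outside the lists, 133 against 59 on a list. Among those chosen after their values were seen, tgm2l, a transglutaminase gene, fell by 2.57 (adjusted p = 0.00251), from 21.4 and 9.95 CPM to 1.14, 1.51 and 2.41 CPM. The protocadherin gene pcdh1gc5 fell by 2.16 (adjusted p = 0.00196), from 69.8 and 66 CPM to 12, 12 and 22 CPM, and another member of that cluster, pcdh1g33, rose by 0.63 (adjusted p = 0.0379, kept in 0 of 5 fits). cox8b, a subunit of cytochrome c oxidase, rose by 0.90 (adjusted p = 0.00465), from 85.1 and 84.6 CPM to 161, 166 and 150 CPM. Families with near-identical members, such as the galectin, itgae, class II, glutathione S-transferase and protocadherin genes, are uncertain at the level of single copies, since the treatment of shared reads is not given in the sources used here.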

How the data were processed

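Brain RNA was measured in 11 libraries. HISAT2, edgeR and the build GRCz10 are named in the submitters' processing notes. No version, gene counter, strand setting or annotation release is given in the sources used here. The values analysed are a deposited signal, CPM per gene, which the authors scaled with 1 factor per library, per the file headers and the values. The authors' deposited log2 values, p-values and a score (each library's rank for a gene) stand in the same tables and were not used. All values (100%) came to whole reads within 0.001 reads. Each listed gene had at least 1.97 CPM in 3 libraries, so the table was filtered before deposit. A gene with reads in the 2 control libraries alone could not have been listed. Some falls, such as csf1ra, itgae.1, cxcr3.2, c1qa and c1qb, reached that level in 3 libraries only with the controls. The calls and fits of such genes are no separate support for a fall.

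Genotypes were compared with limma 3.58.1 (R 4.3.3), with the mean-variance trend option, in a single fit of log2(CPM + 1) over all 4 groups and 7 residual degrees of freedom and Benjamini-Hochberg adjustment over 16536 genes. Where no tool is named, an adjusted p is limma's. The fit was tested on simulated data. edgeR 4.0.16 and DESeq2 1.42.0 on the recovered reads were alternatives. Folds against groups at 0 used a floor of 3 reads over the group, and such floors cover counting error only.

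The lists and the genotypes compared were chosen with earlier results of these data known. From 49 lists, 1231 of 1602 symbols matched the table, by its symbol or the current one. Named genes were the 15 widest called rises and falls against control, kept to genes averaging 1 or more in log2(CPM + 1) whose groups do not overlap. Added to these were the 5 smallest adjusted p, up to 6 called members per list, the 6 highest members of the microglia list that were not called, and the 5 widest rises and falls against each other mutant. Chromosomes came from RefSeq (GRCz12tu). Lists with 0 called members that the report does not describe are given with the other observations.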

Additional observations from a re-analysis of the deposited data

How the results depend on the processing

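In the lists below, counts of called genes are given against the 192 called in double mutants against control, the 156 against single mutants, the 14 against csf1rb-heterozygous mutants and the 27 falls on the microglia and macrophage list. DESeq2 on the recovered reads called 621, 430 and 98 genes, all 192 among the first, while edgeR's quasi-likelihood test called 203 against control, 182 of them shared. With only genes of a mean of at least 5 CPM, which leaves fewer genes to test and no csf1ra, the counts were 107, 96, 6 and 15. A fit of the 2 compared groups alone, with fewer libraries, gave 116 against control and 15 on the list. Leaving out each replicate in turn gave 74 to 133 genes against control, 66 to 151 against single mutants, 8 to 36 against csf1rb-heterozygous mutants and 11 to 25 falls on the list. Over the same fits csf1ra ranged from -3.15 to -2.77, with an adjusted p of 0.0609 without control replicate 1. Without the 3 mutant libraries numbered 2, a choice made after seeing the data, 79 genes were called against single and 5 against csf1rb-heterozygous mutants.

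With the replicate number of the titles as a block, 322, 294 and 24 genes were called, and with the number of the descriptions 250 against control and 367 against single mutants. The numbers are not stated to mark shared fish or days, and same-numbered pairs correlated from -0.01 to 0.64 in their deviations from group means, with 9 of 15 pairs over 0.1 by description. By that number 11 of 11 libraries correlated best with a library of their own number, and by the title number 10 of 11. The numberings differ for control replicate 2 alone. This is a hint from the data and not from the design. None of the 192 genes called against control reversed its direction under any alternative run. The direction of the calls against the other mutants was not checked in this way. The causes of these changes were not tested. Low reads limit genes near 1 CPM, where 1 read is about 0.07 CPM. A planned description of promoter motifs was not run.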

Other observations

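Lists of further cell types and pathways held few or no calls in double mutant against control brain. In all, 23 of the 49 lists held 0 called genes with limma. Their 680 entries included 90 with an unadjusted p under 0.05, which 16.1% of all genes reached, and edgeR called 1 and DESeq2 14 of them. Medians of these lists lay near 0 for mural and fluorescent granular perithelial cells (19 genes, 0.08), meninges and fibroblasts (21 genes, -0.04), extracellular matrix (29 genes, -0.07), monoamine neurons (16 genes, -0.02), Purkinje and granule cells (18 genes, 0.01), pallial neuron factors (30 genes, -0.11) and voltage-gated channels (30 genes, -0.10). The same held for circadian clock genes (38 genes, 0.03), proliferation (33 genes, -0.14), the respiratory chain (53 genes, 0.01), hypothalamic neuropeptides (35 genes, -0.02), TRIM and NLR genes (34 genes, -0.01), Wnt, Notch and growth factor signalling (56 genes, -0.09) and glycolysis (35 genes, -0.06). Among the 21 genes of ependyma and cilia the median was 0.20, and cep152 was the 1 call.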
